A study of Mus musculus with 4 samples.

Results

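The BCL2 family decides at the mitochondrial outer membrane whether a cell lives or dies, and 10 of its genes were followed here in 32Dcl3-Abl1ko cells growing with or without interleukin 3 (IL-3). The genes were taken by name: the pro-survival genes Bcl2, Bcl2l1, Mcl1 and Bcl2a1b, the BH3-only genes Bcl2l11, Bbc3, Bad and Bid, and the effector genes Bax and Bak1. All 10 were found among the 23756 genes of the deposited count and FPKM tables, and all 10 passed the filter on low counts that left 16535 genes for testing. 32Dcl3 is a murine hematopoietic line of bone marrow origin that normally needs IL-3, and Abl1, a tyrosine kinase gene, was targeted in it by CRISPR/Cas9. The Abl1ko/IL3+ group (Abl1 KO, with IL-3) and the Abl1ko/IL3- group (Abl1 KO, without IL-3) had 2 libraries each. Both groups were thus Abl1-edited, and no unedited group was analysed here. Cells growing without IL-3 came from populations that had been starved of the factor and had outlived it, so the comparison is between established growth states and not a course of acute withdrawal. The cells were derived from guide-edited populations and clones that the labels do not tie to single libraries, and nothing states that replicates came from separate cultures, so the p-values measure the spread between these libraries, which may be technical.

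Pro-survival proteins hold the effectors BAX and BAK in check. BH3-only proteins are the stress sensors that bind and neutralize pro-survival proteins or activate the effectors, and the activated effectors open pores in the outer membrane through which cytochrome c escapes to start the caspases. In hematopoietic cells, IL-3 signalling is known to maintain pro-survival proteins such as BCL-XL and MCL1 and to restrain BIM and PUMA through FOXO factors, while BAD is held inactive by phosphorylation, which RNA levels do not show.

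Library totals ran from 48953174 to 60382588 counts, at which 3 counts correspond to 0.0497 to 0.0613 CPM (counting error only), far under the level of each of the 10 genes. Abl1 itself was seen in 1322 and 2222 counts with IL-3 against 1544 and 2256 without it, which checks neither label, since both groups were edited and a guide cut need not lower the RNA. The labels call the line a pre-B-cell, but the summed level of the 7 pre-B markers analysed was 12.1 to 14.6 FPKM. Of that sum, Cd79b made up 6.24 to 10.9 FPKM. Cd79a made up 6.41 FPKM in Abl1ko/IL3+ replicate 2 and at most 1.07 FPKM in any other library. The summed level of 12 myeloid progenitor markers was 765 to 1519 FPKM. Of the myeloid markers, Mpo ran from 135 to 528 FPKM, Elane from 2.10 to 4.54 FPKM, and Kit had at most 4 counts. Libraries differed in lineage genes inside the groups as well as between them. The summed FPKM of 10 markers of maturing granulocytes was 597 and 183 FPKM with IL-3 against 792 and 4163 FPKM without it, and that of 6 erythroid markers was 289 and 11932 FPKM against 5528 and 3112 FPKM. These are bulk samples, in which fewer cells of a type and less RNA per cell cannot be told apart.

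Shared sequence touches the value of 1 member above all, Bcl2a1b, which belongs to a set of near-identical mouse genes for the protein A1. The coding sequences of Bcl2a1a, Bcl2a1b and Bcl2a1d (GENCODE release M21) were 519 bases long each and differed at 12 positions in all. Bcl2a1b shared 98.84% of its coding bases with Bcl2a1d and 97.88% with Bcl2a1a. Coding bases 1 to 90, which hold 6 of the 12 differing positions, are shown with those positions in capitals to show how little separates reads of the 3 genes.
Bcl2a1a: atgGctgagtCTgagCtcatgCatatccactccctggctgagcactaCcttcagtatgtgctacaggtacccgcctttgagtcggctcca
Bcl2a1b: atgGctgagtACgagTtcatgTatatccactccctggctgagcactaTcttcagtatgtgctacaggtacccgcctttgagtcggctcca
Bcl2a1d: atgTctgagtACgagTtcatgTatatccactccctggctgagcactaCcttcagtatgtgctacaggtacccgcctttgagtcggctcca

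Of all 50-base windows of the Bcl2a1b transcript, 79.2% occurred letter for letter in transcripts of other genes. The share was 17.6% for Bax, whose windows recurred in the annotated gene Gm45808, and at most 0.221% for each of the other 8 members. Gm45808 overlaps Bax itself on the same strand, with 192 shared exon bases, and is not among the 23756 genes of the deposited tables. How reads matching several genes were assigned is not given in the sources used here, so the value of Bcl2a1b is uncertain. How reads in the bases that Bax shares with Gm45808 were treated is not given either.

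Promoters of the family were compared because FOXO factors are known activators of Bcl2l11 and Bbc3. RefSeq lists 16 promoters for the 10 members (GRCm38.p6, 250 bases before to 50 after a start site), and the FOXO core motif TGTTTAC, searched on both strands, was in 2 of them against 3.65% of 32851 mouse promoters. One belongs to Bcl2l11 and begins 227 bases before the start, and the other belongs to Bbc3 and begins 167 bases before the start. The 250 bases before each start are shown 5′ to 3′ on the plus strand with the motif in capitals. That of Bcl2l11 is chr2:128125788-128126037, just before the first annotated exon, and that of Bbc3 is chr7:16310011-16310260, outside annotated exons but inside the gene, before a downstream start.
Bcl2l11: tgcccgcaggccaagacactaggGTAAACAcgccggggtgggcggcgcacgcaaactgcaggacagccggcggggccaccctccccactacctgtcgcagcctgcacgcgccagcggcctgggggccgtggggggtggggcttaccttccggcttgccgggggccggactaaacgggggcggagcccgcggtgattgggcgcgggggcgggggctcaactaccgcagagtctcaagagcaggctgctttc
Bbc3: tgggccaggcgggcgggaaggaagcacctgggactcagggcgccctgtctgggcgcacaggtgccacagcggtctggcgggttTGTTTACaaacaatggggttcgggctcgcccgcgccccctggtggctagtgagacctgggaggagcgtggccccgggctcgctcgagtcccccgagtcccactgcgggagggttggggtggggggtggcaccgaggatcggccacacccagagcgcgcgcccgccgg

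Other motifs were searched on both strands in the same promoters. The STAT motif TTCNNNGAA was in 0 of the 16 promoters and in 8.3% of all mouse promoters. The GC box GGGCGG was in 11 of the 16 (35.7% of all), the CCAAT box CCAAT in 4 (37.4% of all) and the E-box CACGTG in 2, of Bax and Bbc3 (7.15% of all). These shares were not matched for GC content, which ran from 46.7% to 78.0% in the member promoters beside a median of 52.7% over all promoters. The Bbc3 promoters that begin at 16310011 and 16310181 overlap and share GC boxes. The GC box and the CCAAT box were each found in promoters of both Bcl2l11 and Bbc3. Neither FOXO match overlapped another of these motifs. A match or its absence says only which letters these windows hold.

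Levels are given per length, as the deposited FPKM, so that genes can be set beside each other. Averaged over the 4 libraries, Bax was at 113 FPKM, Mcl1 at 94.3, Bcl2a1b at 62.9, Bak1 at 39.7, Bid at 29.5, Bbc3 at 18.6, Bcl2l1 at 10.9, Bcl2 at 8.35, Bad at 7.38 and Bcl2l11 at 3.72. Over single libraries Mcl1 overlapped with both Bax and Bcl2a1b, and Bcl2a1b overlapped with Bak1, while Bcl2a1b lay under Bax without overlap. Bid lay under Bak1 in every library, Bbc3 under Bid, and Bcl2l1 under Bbc3, without overlap. The last 4 genes overlapped with their neighbours in the order.

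**Figure D1:**
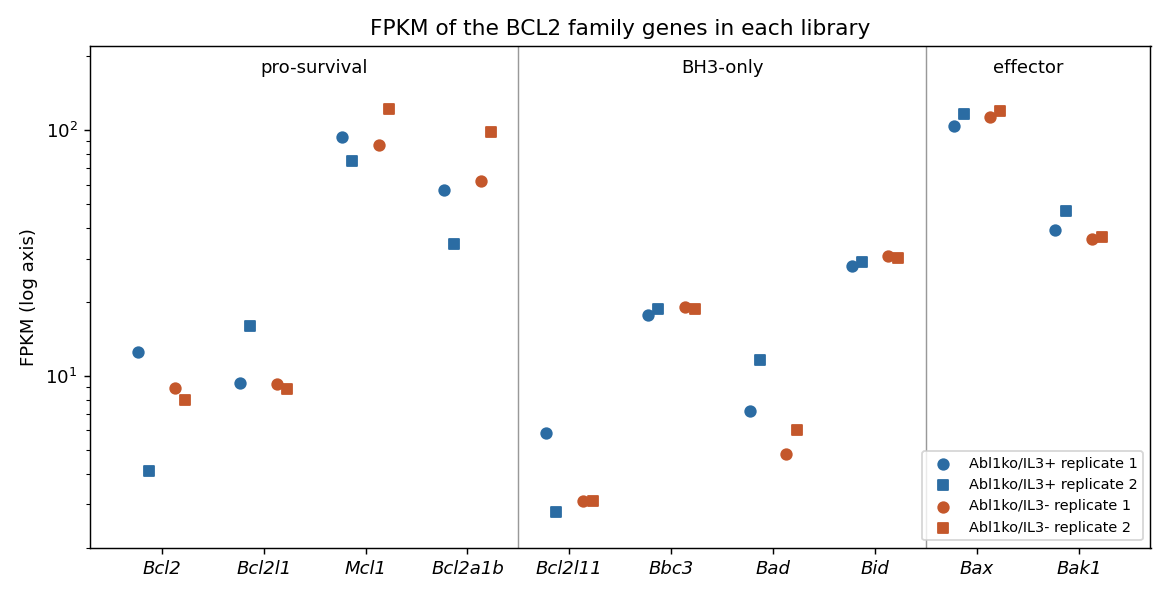
FPKM (log axis) of the 10 genes in each library, blue with IL-3 and orange without, circles for replicate 1 and squares for replicate 2, grouped by role. Bax, Bid and Bbc3 formed tight clusters across all 4 libraries, while Bcl2 ran from 4.12 to 12.5 FPKM within the Abl1ko/IL3+ group alone.

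Mcl1 (chr3:95658788-95663176, plus strand), which encodes a short-lived guard against BAK and BIM, was the most abundant of the 4 pro-survival genes in each library. Its level was 93.4 and 74.8 FPKM with IL-3 and 87.0 and 122 FPKM without it. Bcl2a1b (chr9:89199209-89207827, plus strand) was second, with 57.0 and 34.3 FPKM with IL-3 and 62.3 and 98.0 FPKM without it. The Abl1ko/IL3- libraries were the highest for Bcl2a1b, whereas for Mcl1 the groups overlapped on this scale.

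Bcl2 (chr1:106538178-106714274, minus strand), the founding pro-survival gene, stood at 12.5 and 4.12 FPKM with IL-3 and at 8.89 and 7.94 FPKM without it. The Abl1ko/IL3+ libraries were thus its highest and its lowest. Bcl2l1 (chr2:152780668-152831728, minus strand), which encodes BCL-XL, showed the opposite order with IL-3, at 9.33 and 16.0 FPKM, and stood at 9.28 and 8.80 FPKM without it. The ratio of Bcl2 to Bcl2l1 FPKM was 1.33 and 0.257 with IL-3 against 0.958 and 0.902 without it, so which of these genes was the more abundant differed between replicates of 1 group. The high Bcl2l1 value came from Abl1ko/IL3+ replicate 2, the library with the highest summed erythroid markers. Hba-a1, an alpha globin gene, had 139 and 6657 FPKM with IL-3 and 3490 and 1795 FPKM without it. On FPKM, Bcl2l1 was no higher in the Abl1ko/IL3- libraries than in Abl1ko/IL3+ replicate 1. The order depended on the scale. By TMM-normalized CPM, Bcl2l1 in Abl1ko/IL3- replicate 1 (49.8) exceeded that in Abl1ko/IL3+ replicate 1 (44.5). Abl1ko/IL3- replicate 2 (43.7) stayed slightly under the latter, and Abl1ko/IL3+ replicate 2 (91.7) was again the highest. The part of erythroid cells in the Bcl2l1 value was not tested.

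Among the BH3-only genes, Bid (chr6:120891930-120916853, minus strand), whose product links death receptors to mitochondria once caspase 8 cuts it, was the most abundant, at 28.0 and 29.0 FPKM with IL-3 and 30.7 and 30.1 FPKM without it. Bbc3 (chr7:16308393-16318205, plus strand), which encodes the p53 target PUMA, stood at 17.7 and 18.8 FPKM with IL-3 and 19.0 and 18.8 FPKM without it. In both genes the 4 libraries were nearly level.

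Bad (chr19:6941861-6951899, plus strand) encodes the sensor that growth factor kinases phosphorylate. It had 7.18 and 11.6 FPKM with IL-3 and 4.80 and 5.99 FPKM without it, so both libraries without IL-3 lay under both with it, and the highest value was again in Abl1ko/IL3+ replicate 2. Bcl2l11 (chr2:128126038-128162547, plus strand), which encodes BIM, the sensor best known for the death of cytokine-starved blood cells, was the least abundant member. It had 5.88 and 2.81 FPKM with IL-3 and 3.11 and 3.10 FPKM without it. Only Abl1ko/IL3+ replicate 1 stood apart.

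Of the effectors, Bax (chr7:45461697-45466898, minus strand) had 104 and 116 FPKM with IL-3 and 113 and 120 FPKM without it. Bak1 (chr17:27019810-27029009, minus strand), which encodes BAK, had 39.1 and 46.7 FPKM with IL-3 and 36.1 and 36.8 FPKM without it. Exons of opposite-strand genes named Ggnbp1 cover 7.35% and 18.2% of the exon bases of Bak1. The ratio of Bax to Bak1 was 2.65 and 2.48 with IL-3 against 3.12 and 3.26 without it. The ratio was higher in both libraries without IL-3, but it was chosen after the values were seen and was not tested.

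The comparison of Abl1ko/IL3- with Abl1ko/IL3+ asks which of these genes differed in cells that no longer needed the cytokine. No member passed. In the edgeR quasi-likelihood test with Benjamini-Hochberg adjustment over 16535 genes, 0 of 10 members had an adjusted p under 0.05, against 0% of all genes, and the lowest adjusted p of any gene was 0.335. At an unadjusted p under 0.05 the count was 0 of 10 members against 5.91% of all genes. That count was 4 without Abl1ko/IL3+ replicate 1, where 2610 of 17410 genes passed, and 1 without Abl1ko/IL3+ replicate 2, where 2990 of 17731 genes passed. DESeq2 called 0 of 10 members and 1.64% of all genes, with a lowest adjusted p among members of 0.771 for Bcl2a1b. The log2 fold changes were above 0 for 6 members and under 0 for 4, with a median of 0.04, beside a median of -0.03 over all genes tested.

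**Figure D2:**
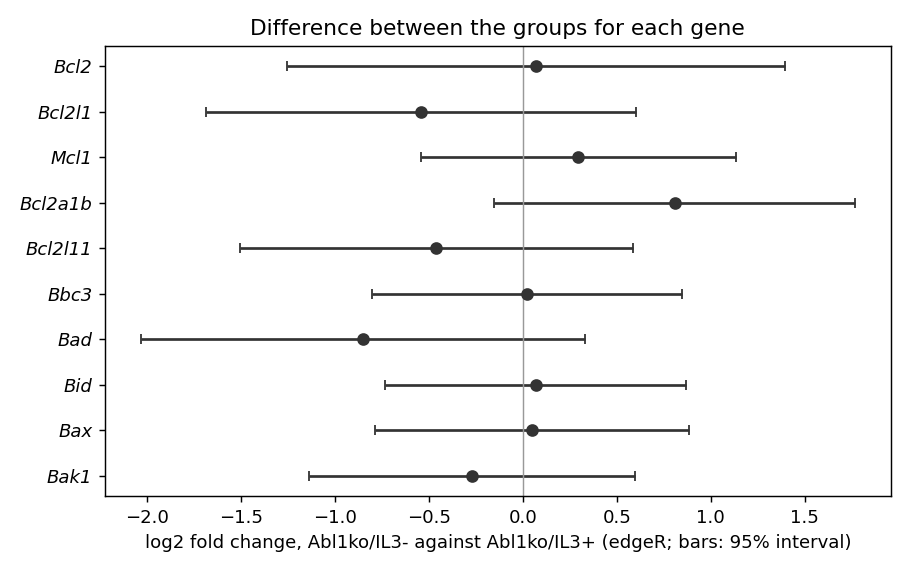
Log2 fold change of each gene without against with IL-3 (edgeR), with bars for the 95% interval. Every interval spans 0, and Bcl2a1b (0.81) and Bad (-0.85) lie farthest from it.

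For Bcl2a1b the log2 fold change was 0.81, with a standard error of 0.37 and a 95% interval from -0.15 to 1.77 (edgeR, adjusted p = 0.855). Its TMM-normalized level was 48.4 and 35.0 CPM with IL-3 and 59.5 and 86.5 CPM without it. The order of the libraries was that of the summed granulocyte markers, lowest in Abl1ko/IL3+ replicate 2 and highest in Abl1ko/IL3- replicate 2. Ngp made up most of that sum in each library and put Abl1ko/IL3- replicate 1 under Abl1ko/IL3+ replicate 1 (427 against 541 FPKM). Of the single markers, S100a8, S100a9, Ltf, Camp and Ly6g kept the order, whereas Ngp, Lcn2, Cd177, Mmp8 and Mmp9 did not. The part of maturing granulocytes in the Bcl2a1b value was not tested. Because reads of the A1 genes can be shared, the counts of Bcl2a1a, Bcl2a1b, Bcl2a1c and Bcl2a1d were also summed. The sum was 150 and 125 CPM with IL-3 and 171 and 208 CPM without it, which gave 0.47 on the log2 scale (edgeR, standard error 0.32, adjusted p = 0.900). Bcl2a1b held 32.3% and 28.0% of that sum with IL-3 against 34.8% and 41.5% without it. Taken alone, Bcl2a1a, the largest part, differed by 0.32 on the log2 scale and Bcl2a1d by 0.04. Without Abl1ko/IL3- replicate 2, the log2 fold change of Bcl2a1b was 0.52. In GENCODE, 49.1% of the exon bases of Bcl2a1b also belong to Gm29094 on the same strand, which had at most 26 counts in any library.

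For Bad the log2 fold change was -0.85, with a standard error of 0.46 and a 95% interval from -2.04 to 0.33 (edgeR, adjusted p = 0.871). Its TMM-normalized level was 19.1 and 36.9 CPM with IL-3 and 14.4 and 16.6 CPM without it. The difference rested largely on Abl1ko/IL3+ replicate 2, without which the log2 fold change was -0.30. Exons of Gpr137 on the opposite strand cover 20.5% of the exon bases of Bad, and whether the counting used strand is not given in the sources used here. Gpr137 counted 1032 and 1126 reads in the Abl1ko/IL3+ libraries against 1332 and 1114 in the Abl1ko/IL3- libraries.

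For Bcl2l1 the log2 fold change was -0.54 (95% interval -1.69 to 0.60), for Bcl2l11 -0.46 (-1.50 to 0.58), for Mcl1 0.30 (-0.54 to 1.13) and for Bak1 -0.27 (-1.14 to 0.60). Leaving out 1 library turned 3 of these, Bcl2l1 to 0.073 and Bak1 to 0.016 without Abl1ko/IL3+ replicate 2, and Bcl2l11 to 0.0097 without Abl1ko/IL3+ replicate 1. The other 4 lay nearer to 0, and each turned sign without at least 1 library. Bcl2 was at 0.07 (-1.26 to 1.40), Bid at 0.07 (-0.74 to 0.87), Bax at 0.05 (-0.79 to 0.89) and Bbc3 at 0.02 (-0.80 to 0.85). Bcl2 and Bid thus had nearly the same estimate but standard errors of 0.52 and 0.31.

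The groups did not overlap for a few members. On TMM-normalized CPM, both libraries without IL-3 lay above both with it for 2 of 10 members, Mcl1 and Bcl2a1b, against 19.4% of all genes tested. They lay under both for 1 of 10, Bad, against 17.9% of all genes. On FPKM the higher members were 3 (Bcl2a1b, Bbc3 and Bid) against 20.7% of all genes, and the lower members were 3 (Bcl2l1, Bad and Bak1) against 16.2%. Bcl2a1b and Bad alone kept to the same side on both scales, and each of these counts lay within 2 genes of the background share.

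The members differed more from each other in how steady they were. Over the 4 libraries the coefficient of variation (CV) of TMM-normalized CPM was 9.97% for Bid, 10.4% for Bbc3, 11.9% for Bax, 16.6% for Mcl1 and 19.4% for Bak1. It was 31.7% for Bcl2l11, 35.4% for Bcl2, 38.1% for Bcl2a1b, 40.1% for Bcl2l1 and 47.2% for Bad. The median over the 7045 tested genes with a mean level at or above that of Bad was 28.0%, so 5 members lay under it and 5 above it.

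**Figure D3:**
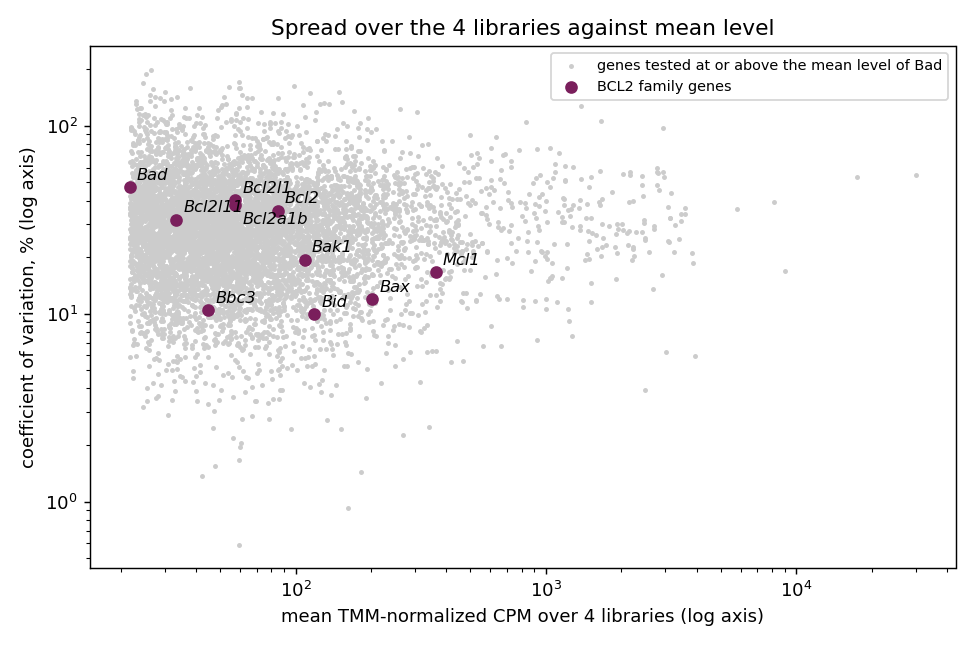
Coefficient of variation over the 4 libraries against mean TMM-normalized CPM (both log axes) for the 7045 tested genes at or above the mean level of Bad, in grey, and the 10 members, in purple. Bid, Bbc3 and Bax lie low in the cloud, with 6.54%, 7.28% and 10.2% of genes under them.

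Bid, Bbc3 and Bax held within a factor of 1.24, 1.27 and 1.34 from the lowest to the highest library, whereas Bcl2, Bad and Bcl2a1b spanned a factor of 2.52, 2.56 and 2.47. Of the 7045 genes, 6.54% had a smaller CV than Bid, 7.28% a smaller one than Bbc3 and 10.2% a smaller one than Bax. On FPKM, which uses library size without TMM, the shares were 0.582%, 0.199% and 1.70%. At the other end, 82.7% of the genes had a smaller CV than Bad, 74.2% a smaller one than Bcl2l1, 71.1% than Bcl2a1b and 66.1% than Bcl2. On FPKM these shares were 74.0% for Bad, 59.0% for Bcl2l1, 76.7% for Bcl2a1b and 75.6% for Bcl2, so which member varied most depended on the scale. For Mcl1 the share was 21.1% on TMM-normalized CPM and 32.5% on FPKM. The spread mixes replicates and groups, and no test was made on it.

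Summed by role, the pro-survival genes reached 172 and 129 FPKM with IL-3 and 167 and 237 FPKM without it. The BH3-only genes summed to 58.8 and 62.2 FPKM with IL-3 and 57.6 and 58.0 FPKM without it, and the effectors to 143 and 163 FPKM with IL-3 and 149 and 156 FPKM without it. For single genes, the CV of TMM-normalized CPM ran from 9.97% to 47.2% in the BH3-only genes and from 16.6% to 40.1% in the pro-survival genes. As summed FPKM, the spread between libraries was mostly in the pro-survival class. That class held 46.1% and 36.5% of the summed family FPKM with IL-3 (41.3% ± 6.78, SD, n = 2) and 44.8% and 52.5% without it (48.6% ± 5.44, SD, n = 2). The groups overlapped, and the difference of 7.34 percentage points was near the pooled SD of 6.15. It was 2.54 points without Abl1ko/IL3+ replicate 2 and 12.1 points without Abl1ko/IL3+ replicate 1. Over all 23 family genes analysed, with other pro-survival genes counted in, the share was 32.6% and 33.5% with IL-3. Without IL-3 that share was 40.2% and 36.6%, so in this version the groups did not overlap. Of all single genes tested, 37.3% did not overlap in either direction on TMM-normalized CPM. The 23 genes include the mitophagy receptor genes Bnip3l and Bnip3. Bnip3 alone had 249 and 90.5 FPKM with IL-3 and 111 and 305 FPKM without it. The share without these genes was not computed, so their part in the lack of overlap was not tested. A two-sided exact permutation test of 2 against 2 libraries cannot give a p under 0.333, so none was made.

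**Figure D4:**
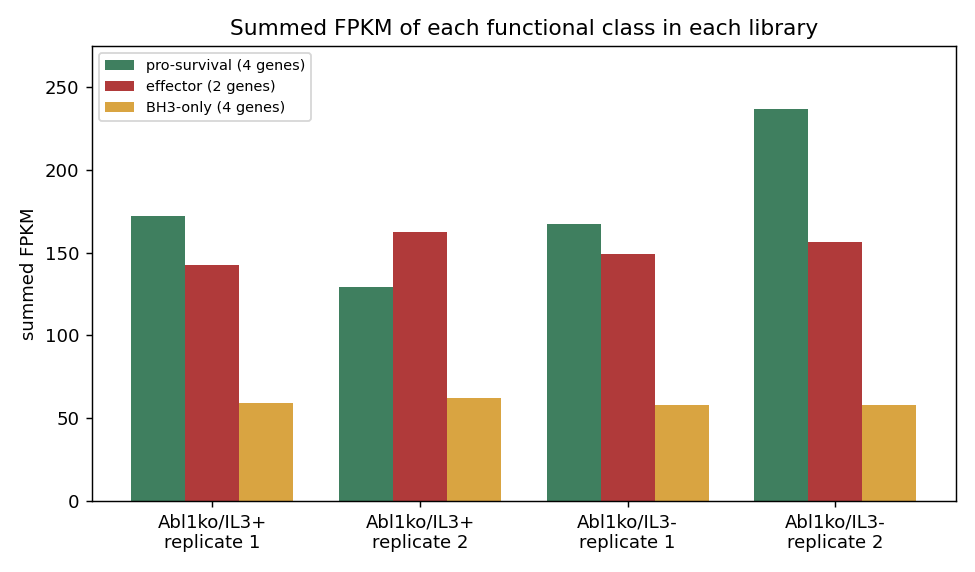
Summed FPKM of the pro-survival (green, 4 genes), effector (red, 2 genes) and BH3-only (gold, 4 genes) members in each library. The BH3-only bars stay between 57.6 and 62.2 FPKM, while the pro-survival bars run from 129 to 237 FPKM and fall under the effector bar in Abl1ko/IL3+ replicate 2 alone.

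Within the pro-survival class, Mcl1 held 54.2% and 57.9% of the FPKM with IL-3 against 52.0% and 51.5% without it. Bcl2a1b held 33.1% and 26.6% with IL-3 against 37.2% and 41.4% without it. Bcl2 held 7.23% and 3.19% with IL-3 against 5.31% and 3.35% without it, and Bcl2l1 5.41% and 12.4% with IL-3 against 5.54% and 3.72% without it. Mcl1 with Bcl2a1b thus made up most of the summed FPKM of these 4 genes in every library, a share that leaves out Bcl2a1a, Bcl2a1d and other pro-survival genes. The ratio of Mcl1 to Bax, a guard against an effector, was 0.902 and 0.645 with IL-3 against 0.772 and 1.02 without it. That of Bcl2l11 to Mcl1 was 0.0629 and 0.0375 with IL-3 against 0.0358 and 0.0254 without it. These ratios were chosen after the values were seen.

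Of 16 other BCL2 family genes on a list, 13 were analysed and 10 tested, of which 0 passed the adjusted threshold and 1 had an unadjusted p under 0.05. That gene was Bcl2l13, a mitophagy receptor, at 16.9 and 8.71 FPKM with IL-3 and 4.86 and 6.49 FPKM without it (log2 fold change -1.16, standard error 0.38, adjusted p = 0.798 in edgeR). Its exons cover 17.7% of the exon bases of Bid on the opposite strand, while Bid ran from 28.0 to 30.7 FPKM. The median log2 fold change of the 10 was -0.06. The mitophagy receptor genes Bnip3 and Bnip3l were among the most abundant, Bnip3 at 249 and 90.5 FPKM with IL-3 and 111 and 305 FPKM without it, and Bnip3l at 132 and 101 FPKM with IL-3 and 90.8 and 120 FPKM without it. Bcl2a1a had 104 and 79.2 FPKM with IL-3 and 107 and 123 FPKM without it, above Bcl2a1b in each library. It was also above Mcl1 in each library, though barely so in Abl1ko/IL3- replicate 2 (123 against 122 FPKM). Bcl2a1d had 14.3 and 8.45 FPKM with IL-3 and 9.43 and 14.0 FPKM without it. Bok, the third effector-like gene, had 0 counts in both libraries with IL-3 and 8 in each without it.

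Downstream of the pore, 14 of 15 listed genes of the mitochondrial death steps were tested, of which 0 passed the adjusted threshold and 2 had an unadjusted p under 0.05. Of these, Casp9, the initiator caspase gene of the apoptosome, was at 3.28 and 0.848 FPKM with IL-3 and 0.205 and 0.508 FPKM without it (log2 fold change -2.49, standard error 0.81, adjusted p = 0.797 in edgeR). The median over the 14 genes was -0.11, with 5 values above 0 and 9 under it. The outer membrane channel genes Vdac1 (100 and 104 FPKM with IL-3, 80.4 and 127 without) and Vdac2 (27.3 and 35.3 FPKM with IL-3, 28.6 and 34.1 without) overlapped between groups. Cycs, the cytochrome c gene, had 17.4 and 34.6 FPKM with IL-3 and 34.7 and 28.6 FPKM without it.

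Of 22 listed regulators of the family, 21 were tested, 0 passed the adjusted threshold and 1 had an unadjusted p under 0.05. This was Ddit3, which encodes the stress factor CHOP, a known activator of Bcl2l11 and Bbc3. Ddit3 had 10.6 and 13.7 FPKM with IL-3 and 28.6 and 32.9 FPKM without it (log2 fold change 1.29, standard error 0.37, adjusted p = 0.727 in edgeR). Beside it, Bcl2l11 and Bbc3 had the levels given above, with log2 fold changes of -0.46 and 0.02, and a link to Ddit3 was not tested. The median over the 21 regulators was -0.02, with 9 values above 0 and 12 under it. Among the most abundant, the 14-3-3 gene Ywhae had 109 and 139 FPKM with IL-3 and 130 and 135 FPKM without it, and the co-chaperone gene Bag1 78.3 and 87.0 FPKM with IL-3 and 174 and 94.1 FPKM without it. The kinase genes Pim1 and Pim2, whose products phosphorylate BAD, varied by library. Pim1 had 112 and 67.4 FPKM with IL-3 and 16.8 and 78.6 FPKM without it, and Pim2 82.7 and 32.6 FPKM with IL-3 and 49.4 and 80.0 FPKM without it.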

How the data were processed

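RNA depleted of ribosomal RNA was sequenced by the authors on an Illumina HiSeq instrument, aligned to GRCm38 with Rsubread and summarized per gene with featureCounts, and raw counts were deposited. The authors also deposited FPKM values, which follow the same counts scaled by union exon length and library size. The submitters' processing notes list STAR, Cuffdiff and mm10, without a role. Versions and the strand setting are not given in the sources used here. Samples were grouped by the labels.

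The tests were made on the counts in R 4.3.3 with edgeR 4.0.16 (filterByExpr, TMM, quasi-likelihood F test, two-sided, Benjamini-Hochberg over 16535 genes, threshold 0.05), and the steps were tested on simulated data. Alternatives were DESeq2 1.42.0, library size alone, no filter, 10 counts in every library, the replicate block, limma 3.58.1 on log2(FPKM + 1) and log2(FPKM + 0.1), and leaving out each library. The crossed pairing and the FPKM versions of spread and overlap were added after seeing the data. Every pair of libraries differed beyond sampling noise.

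The members and lists were chosen with earlier results of these data known. By rule all members were named and, of each list, the genes with an unadjusted p under 0.05 and the 4 with the highest mean FPKM. Bok, Cd79a, Cd79b, Mpo, Elane, Kit, Hba-a1, Gm29094, Gpr137, Cd177, Mmp8, Mmp9, Apaf1 and Trp53 were named after their values were seen. Coding sequences came from GENCODE release M21 and promoters from RefSeq (GRCm38.p6), which matched all 10 members. Listed genes not counted as analysed are not analysed here. A result that the naming rule would have given is not reported here.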

Additional observations from a re-analysis of the deposited data

How the results depend on the processing

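No alternative brought a member past the adjusted threshold. The count was 0 under DESeq2, library size alone, no filter, 10 counts in every library, both limma fits, the replicate block, the crossed pairing and each fit without a library. In those 8 settings with all libraries, all 80 log2 fold changes of members kept their direction, with a lowest adjusted p of 0.737. Leaving out each library in turn turned the direction in 10 of 40 cases. The range was -0.44 to 0.90 for Bcl2, -0.96 to 0.073 for Bcl2l1, -0.80 to 0.0097 for Bcl2l11, -0.13 to 0.21 for Bbc3, -0.068 to 0.24 for Bid, -0.13 to 0.28 for Bax and -0.50 to 0.016 for Bak1. Mcl1 (0.10 to 0.47), Bcl2a1b (0.52 to 1.07) and Bad (-1.24 to -0.30) kept theirs. The members under both Abl1ko/IL3+ libraries numbered 1 on TMM-normalized CPM and 3 on FPKM. The difference in the pro-survival share ranged from 2.54 to 12.1 percentage points without a library, lowest without Abl1ko/IL3+ replicate 2, and was 5.07 on CPM and 5.35 over all family genes analysed. Same-numbered libraries deviated in opposite directions (correlation -0.21). With the replicate block 0 genes passed and 548 had an unadjusted p under 0.05, and with the crossed pairing 0 and 1136. Over all genes, edgeR called 0 and DESeq2 271, and in edgeR 22 passed without Abl1ko/IL3- replicate 1 and 1 without Abl1ko/IL3- replicate 2. With 2 libraries a group the spread, not the depth, limits the comparison.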

Other observations

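Other genes around the family, chosen after their values were seen, differed between libraries. Apaf1, which encodes the scaffold of the apoptosome, had 7.04 and 0.731 FPKM with IL-3 and 0.815 and 1.01 FPKM without it (log2 fold change -2.00). Only Abl1ko/IL3+ replicate 1 stood apart, the library that was also highest for Bcl2, Bcl2l11 and Casp9. Trp53, the activator of Bbc3 and Bax, had 49.8 and 80.0 FPKM with IL-3 and 36.5 and 34.9 FPKM without it (log2 fold change -0.91, adjusted p = 0.855 in edgeR). On FPKM, both libraries without IL-3 lay under both with it for Trp53, as they did for 16.2% of all genes tested. Bbc3 and Bax had log2 fold changes of 0.02 and 0.05, and a link to Trp53 was not tested.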
